A study of Homo sapiens with 15 samples.

Results

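The small nucleolar RNA host transcripts are non-coding genes whose introns carry small nucleolar RNAs (snoRNAs). The 10 described here, GAS5, ZFAS1, EPB41L4A-AS1, SNHG1, SNHG5, SNHG6, SNHG8, SNHG12, SNHG15 and SNHG29, were taken by symbol from 69215 gene rows, and each was found as 1 row. They were selected on symbols and on their CPM in these libraries (reads scaled to the library total), which was already known for the 3 comparisons below, so their values and the counts of them that passed a threshold are a description and carry no p-value. RNA was measured by polyA-selected sequencing in Caco-2 cells, which derive from a human colon cancer and resemble absorptive gut cells once confluent. The 3 groups had 5 libraries each: cells given polysorbate 80 (PS80) at 0.05% for 24 h, cells given polysorbate 20 (PS20) at 0.05% for 24 h, and unexposed control cells with no treatment. Both polysorbates are nonionic emulsifiers made of an ethoxylated sorbitan core with a fatty acid, mainly oleic acid in PS80 and lauric acid in PS20. All 3 groups are the same line, the labels give no time for the control cells, and they do not say whether replicates were separate cultures, so the tests measure only the spread between these libraries.

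A snoRNA host gene is transcribed and spliced like an mRNA gene, and the snoRNAs are trimmed out of the excised introns. Box C/D snoRNAs guide ribose methylation and box H/ACA snoRNAs guide pseudouridylation, mostly of ribosomal RNA. Many hosts start with a 5′ terminal oligopyrimidine (TOP) tract, the start shared with mRNAs of ribosomal proteins and translation factors, and the spliced host RNA is in many cases translated over a short reading frame and then destroyed by nonsense-mediated decay. Host RNA levels are therefore known to depend on transcription, on translation and on decay.

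The annotated starts are shown because the TOP tract is the feature by which these hosts resemble ribosomal protein genes. Of the 10 hosts, 8 had a window in the RefSeq promoter table (GRCh38.p14), and SNHG6 and SNHG15 had none. In 3 of these 8, ZFAS1, SNHG5 and SNHG12, the annotated start was a C followed by at least 4 C or T, the pattern searched on the gene's own strand at that base only, against 4.07% of 35116 promoter windows. Each of the 4 windows below runs from 45 bases before the start to the 20th base of the transcript, 5′ to 3′, and the GAS5 line gives the first 32 bases of a GENCODE release 29 transcript. Capitals mark the C and the C or T run after it. SNHG1 is shown as a start that did not match.
ZFAS1 (GRCh38.p14, chr20:49278597-49278661, plus strand): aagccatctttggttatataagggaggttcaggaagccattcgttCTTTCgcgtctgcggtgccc
SNHG5 (GRCh38.p14, chr6:85678714-85678778, minus strand): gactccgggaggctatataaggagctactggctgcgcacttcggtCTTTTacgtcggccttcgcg
SNHG12 (GRCh38.p14, chr1:28581854-28581918, minus strand): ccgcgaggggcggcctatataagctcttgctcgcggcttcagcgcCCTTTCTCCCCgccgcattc
GAS5 (GRCh38, chr1:173867958-173867989, minus strand): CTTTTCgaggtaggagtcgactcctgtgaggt
SNHG1 (GRCh38.p14, chr11:62855866-62855930, minus strand): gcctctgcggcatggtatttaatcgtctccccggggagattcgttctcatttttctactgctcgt

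The RefSeq start of GAS5, at base 173869045, did not hold the pattern, while 6 of its 29 release 29 transcripts began with it. Over all release 29 transcripts of the 10 hosts, 27 of 158 starts held the pattern, against 2.41% of 206694 starts of all genes. At least 1 transcript start matched in 8 of the 10 hosts, all but EPB41L4A-AS1 and SNHG15. Hosts have many annotated transcripts, so the nearer background is that of genes with at least 5 transcripts, of which 20.8% had a matching start, against 8 of 9 such hosts. The letters TATAA, searched on the gene's strand 15 to 45 bases before the RefSeq start, were in 4 of 8 host windows (ZFAS1, SNHG5, SNHG8 and SNHG12), against 4.09% of all windows; this motif was searched after the host sequences had been seen. Neither CACGTG nor TGATGCAA (either strand) was in any of the 8 windows of 250 bases before to 50 after the start, against 7.26% and 0.866% of all windows. A match is a description of the letters and not of a binding site.

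Library totals ran from 6769409 to 42271053 counts in PS80, from 6749086 to 17251564 in PS20 and from 4183096 to 13616301 in control. CPM are counts scaled to these totals, and the edgeR factors for composition lay between 0.978 and 1.02. Epithelial identity was checked on 10 markers: 8 had a mean of at least 5 CPM, including EPCAM, CDH1, KRT8 and VIL1, while KRT20 was at 0 in every library and CDX1 was under 1 CPM. The summed epithelial level was 10210 to 10990 CPM in PS80, 8597 to 9339 CPM in PS20 and 10350 to 12100 CPM in control. Of 13 markers of fibroblasts, endothelium and blood, 8 had means under 1 CPM, with HBB at 0 in every library. However, 4 had means of at least 5 CPM: COL1A1, COL3A1, PDGFRB and PECAM1. The sum was 130.9 to 179.5 CPM in PS80, 139.1 to 161.9 CPM in PS20 and 147.9 to 169.3 CPM in control, mostly COL1A1. COL3A1 averaged 16.37 CPM in PS80, 18.84 CPM in PS20 and 19.84 CPM in control. PECAM1 averaged 12.06, 10.77 and 8.224 CPM in the same groups. PDGFRB was lower under both emulsifiers, at 15.94 CPM in PS80 and 15.01 CPM in PS20, beside 29.64 CPM in control. The source of these transcripts was not tested. The lower epithelial sum under PS20 came mainly from the keratins: KRT8 averaged 2690 CPM in PS20 and 4455 CPM in control, and KRT18 1200 CPM in PS20 and 1834 CPM in control. KRT19 (682.1 CPM in PS20, 966.9 CPM in control), VIL1 (658.4 and 805.3 CPM) and HNF4A (608.8 and 628.9 CPM) also had lower means. EPCAM (1022 CPM in PS20, 976.2 CPM in control), CDH1 (1710 and 1581 CPM) and CDX2 (244.9 and 190.4 CPM) were not lower. The part of this lower sum in the host results was not tested. In these bulk libraries, fewer cells with a transcript and less of it per cell cannot be told apart.

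The main pattern was a higher level of the host RNAs under PS20. All 10 had a higher mean CPM in PS20 than in control, and 9 passed the threshold (edgeR quasi-likelihood test, adjusted p under 0.05 over 12769 genes), all but SNHG5. The background is wide: 24.4% of all genes tested were called higher in PS20 and 23.9% lower. In 9 of the 10, again all but SNHG5, every PS20 library lay above every control library on scaled log2 CPM, which 16.2% of all genes tested did. The median log2 fold change of the 10 was 1.06, beside 0.0105 over all genes tested. Under PS80, 5 hosts passed as higher and 0 as lower against control, the median was 0.37 beside 0.0017 over all genes, and 17.4% and 16.0% of all genes were called higher and lower. The choice of the 10 used these contrasts, so nothing is read from the counts.

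The hosts of mainly box C/D snoRNAs come first. GAS5, the growth arrest-specific transcript whose spliced RNA can bind the glucocorticoid receptor, lies at chr1:173858559-173868882 on the minus strand (this and the row positions below are GRCh38, GENCODE release 42). RefSeq places 11 snoRNAs in its span: SNORD44, SNORD47, SNORD74 to SNORD81 and the box H/ACA snoRNA SNORA103. In replicates 1 to 5 it had 102.0, 97.4, 84.4, 79.5 and 89.0 CPM in PS80, 255.4, 242.9, 253.1, 214.2 and 212.7 CPM in PS20, and 83.7, 77.1, 60.5, 64.0 and 56.4 CPM in control. All PS20 libraries stood far above both other groups, while the lowest PS80 library was under the highest control library. The log2 fold change of GAS5 was 1.79 ± 0.10 (SE) for PS20 against control, a 3.47-fold level and the highest of the 10, and 0.44 ± 0.10 for PS80 against control.

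ZFAS1 overlaps the start of ZNFX1 on the other strand and hosts SNORD12, SNORD12B and SNORD12C; its row spans chr20:49278178-49299600. It had 80.8, 66.2, 75.04, 75.4 and 78.3 CPM in PS80, 163.9, 183.1, 183.8, 173.6 and 161.5 CPM in PS20, and 59.0, 63.3, 50.2, 46.5 and 55.8 CPM in control. The 3 groups did not overlap: every PS20 library was above every PS80 library, and every PS80 library above every control library. On the log2 scale ZFAS1 differed by 1.66 ± 0.08 for PS20 against control and 0.48 ± 0.08 for PS80 against control; with replicates 1 and 2 alone the PS80 value was 0.29 and did not pass. Counting did not use strand, and 36.44% of its exonic bases lay in exons of genes on the other strand, where reads stay unassigned by default. ZNFX1 itself did not pass under PS20 (log2 fold change 0.13 ± 0.07, adjusted p = 0.126, edgeR) and was higher under PS80 by 0.28 ± 0.07 (adjusted p = 0.00299).

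SNHG29, at chr17:16438767-16480249, hosts SNORD49A, SNORD49B and SNORD65 and was the most abundant of the 10. It had 467.8, 438.4, 416.3, 380.8 and 423.8 CPM in PS80, 731.2, 797.5, 740.3, 698.7 and 679.2 CPM in PS20, and 336.9, 382.8, 320.3, 354.3 and 344.8 CPM in control. PS20 libraries again lay apart from the rest. PS80 replicate 4 and control replicate 2 were nearly level: PS80 was fully above control after composition scaling, but not in plain CPM. The SNHG29 log2 fold change was 1.07 ± 0.06 for PS20 and 0.32 ± 0.06 for PS80, each against control.

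SNHG6, at chr8:66920561-66926398, hosts SNORD87. It had 49.1, 36.7, 41.4, 39.7 and 44.9 CPM in PS80, 61.3, 82.8, 70.3, 72.6 and 71.0 CPM in PS20, and 35.6, 42.01, 35.6, 33.2 and 40.6 CPM in control. PS20 libraries lay above all others, and PS80 and control overlapped. For SNHG6 the log2 fold change was 0.94 ± 0.09 for PS20 and 0.20 ± 0.09 for PS80 against control; the PS80 value did not pass, and it was 0.25 and passed without PS80 replicate 2. Its neighbour MCMDC2 on the other strand, which shares exonic bases with it, was also higher in PS20 (log2 fold change 0.69 ± 0.19, adjusted p = 0.00561, edgeR). Without strand, reads of this pair cannot be told apart, and those in shared exonic bases stay unassigned by default. Of the exonic bases of SNHG6, 58.88% lay in exons on the other strand. MCMDC2 averaged 3.54 CPM over all libraries.

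SNHG1, the first of these host genes to be described and the host of SNORD22 and SNORD25 to SNORD31, lies at chr11:62851978-62855953. It had 33.1, 33.6, 34.1, 29.8 and 29.9 CPM in PS80, 49.3, 52.7, 40.0, 39.9 and 35.8 CPM in PS20, and 22.8, 32.8, 27.7, 33.2 and 32.5 CPM in control. The PS20 libraries were all higher than the rest, but the nearest control library was close to the lowest of them, and PS20 replicates 1 and 2 stood above replicates 3 to 5. The SNHG1 log2 fold change was 0.51 ± 0.11 for PS20 and 0.10 ± 0.11 for PS80 against control, and the PS80 value did not pass. The PS20 value depended on the replicates used: it was 0.85 with replicates 1 and 2 alone and 0.28 with replicates 3 to 5 alone.

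SNHG5, host of SNORD50A and SNORD50B at chr6:85650491-85678932, was the exception among the 10. It was barely counted: 17 to 92 reads a library in PS80, 18 to 61 in PS20 and 13 to 39 in control. Its levels were 1.78, 2.18, 2.51, 2.38 and 2.85 CPM in PS80, 4.15, 3.87, 3.54, 5.55 and 2.16 CPM in PS20, and 3.04, 2.65, 3.11, 2.86 and 2.19 CPM in control. Of the PS20 libraries 4 were above all control libraries and replicate 5 was below them. For SNHG5 the log2 fold change was 0.49 ± 0.22 for PS20 and -0.19 ± 0.22 for PS80 against control, and neither passed; at this depth a change of that size was not separable from the spread between libraries. Without PS20 replicate 5 the value for PS20 was 0.63 and passed.

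Among the hosts of box H/ACA snoRNAs, PS20 was again the highest group. EPB41L4A-AS1, host of SNORA13 at chr5:112160526-112164818, had 29.9, 30.8, 28.8, 25.01 and 28.5 CPM in PS80, 63.4, 71.8, 63.1, 65.7 and 62.5 CPM in PS20, and 23.4, 27.0, 19.1, 19.5 and 20.3 CPM in control. Every PS20 library lay far above the rest, and the lowest PS80 library fell within the control range. The EPB41L4A-AS1 log2 fold change was 1.57 ± 0.09 for PS20 and 0.42 ± 0.09 for PS80 against control, and with replicates 1 and 2 alone the PS80 value was 0.30 and did not pass. EPB41L4A, the gene on the other strand, had a mean of 0.42 CPM and was not tested.

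SNHG15, host of SNORA9 at chr7:44983019-44986961 and described as a short-lived, stress-responsive transcript, had 27.1, 26.1, 21.1, 19.1 and 24.2 CPM in PS80, 35.1, 32.3, 29.9, 36.1 and 31.9 CPM in PS20, and 16.5, 15.9, 15.5, 17.0 and 14.4 CPM in control. The 3 groups did not overlap. Of the 10 hosts it had the highest PS80 value: its log2 fold change was 0.61 ± 0.10 for PS80 against control and 1.05 ± 0.10 for PS20 against control. It also had the least shared sequence, 3.37% of its exonic bases.

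SNHG8, host of SNORA24 at chr4:118278703-118285316, had 35.4, 30.0, 29.8, 28.4 and 31.4 CPM in PS80, 52.9, 63.4, 47.8, 48.6 and 49.9 CPM in PS20, and 31.5, 38.3, 27.3, 25.8 and 29.5 CPM in control. PS20 libraries lay above all others, and PS80 and control libraries overlapped. The log2 fold change of SNHG8 was 0.78 ± 0.10 for PS20 and 0.05 ± 0.10 for PS80 against control; the PS80 value did not pass and was -0.02 without control replicate 4. SNHG12, at chr1:28578538-28583132, hosts both classes, SNORD99 beside SNORA16A, SNORA44 and SNORA61. It had 2.47, 2.34, 1.63, 2.49 and 2.90 CPM in PS80, 5.33, 5.21, 5.22, 5.44 and 4.32 CPM in PS20, and 2.39, 1.80, 1.91, 1.84 and 1.23 CPM in control, on 11 to 99, 36 to 90 and 8 to 25 reads a library. PS20 libraries stood apart and PS80 overlapped control. The SNHG12 log2 fold change was 1.505 ± 0.19 for PS20 and 0.46 ± 0.20 for PS80 against control; the PS80 value did not pass, and it was 0.53 and passed without PS80 replicate 3.

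**Figure D1:**
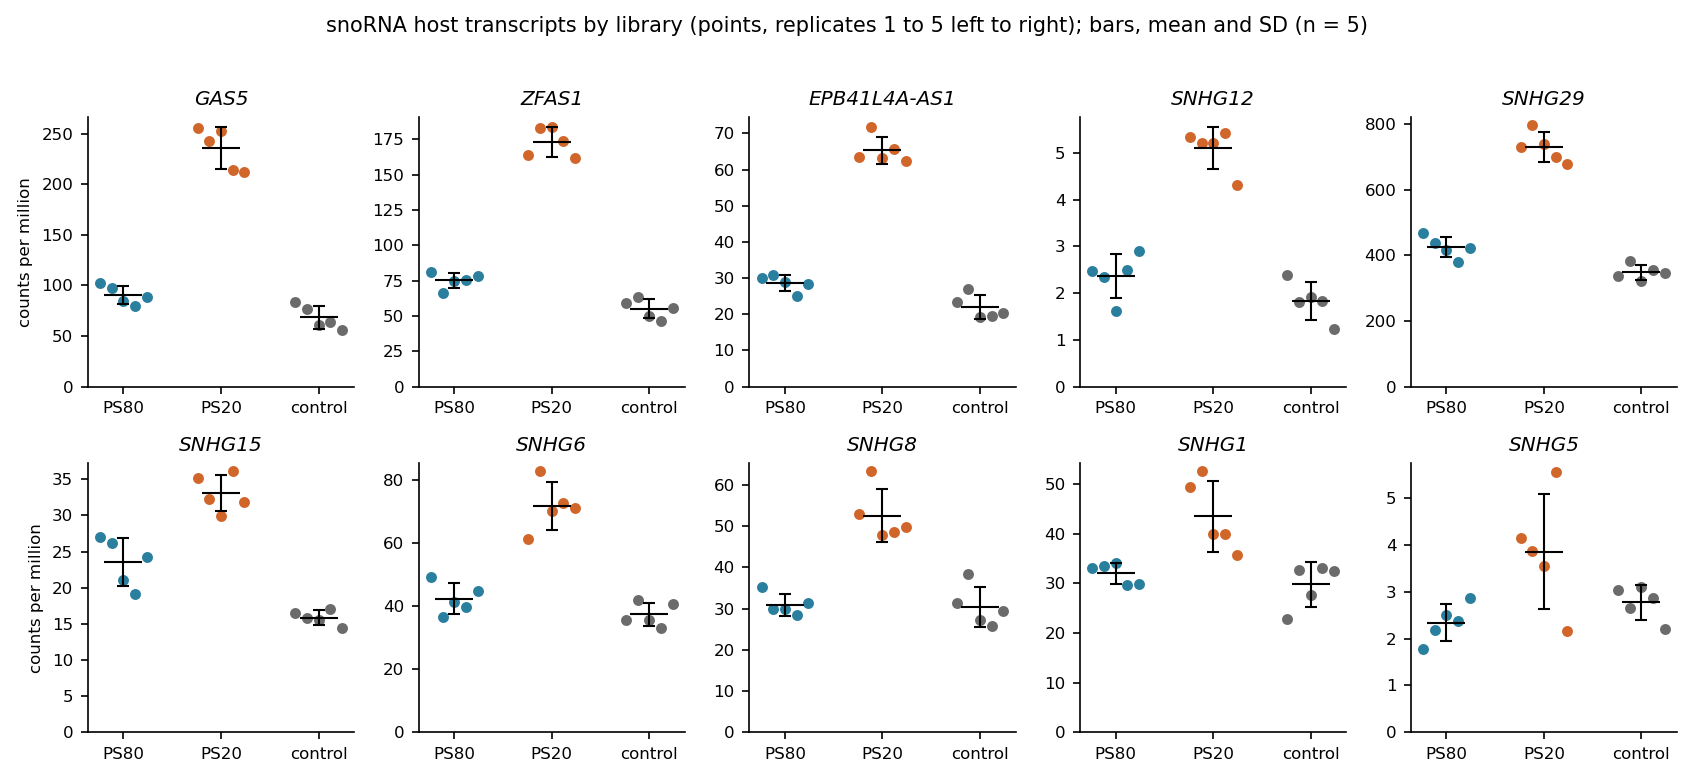
CPM of each host transcript in every library (y axis, from 0) for PS80, PS20 and control (x axis); points are libraries and bars are the mean and SD of 5. PS20 libraries lie above both other groups in 9 panels, and SNHG5 is the panel where a PS20 library, replicate 5 at 2.16 CPM, falls below all control libraries.

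Setting the emulsifiers side by side at the same dose and time, every host was lower in PS80 than in PS20. All 10 passed as lower, with log2 fold changes of PS80 against PS20 between -1.35 (GAS5) and -0.41 (SNHG1) and a median of -0.75, beside -0.0021 over all genes tested. Of all genes tested, 17.3% were called lower and 18.2% higher in PS80 than in PS20. In 9 of the 10, all but SNHG5, every PS80 library lay below every PS20 library, against 11.0% of all genes. The value was -1.35 ± 0.09 for GAS5, -1.19 ± 0.07 for ZFAS1, -1.16 ± 0.08 for EPB41L4A-AS1, -1.04 ± 0.16 for SNHG12 and -0.44 ± 0.09 for SNHG15. SNHG1 and SNHG15 were the hosts whose PS80 and PS20 levels lay closest together. For SNHG5 the value was -0.68 ± 0.20, and -0.51 without PS20 replicate 4, where it no longer passed; nor did it with replicates 1 and 2 alone or 3 to 5 alone. With replicates 1 and 2 alone SNHG15, at -0.31, did not pass.

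Against control, the 5 hosts called higher in PS80 were GAS5, ZFAS1, EPB41L4A-AS1, SNHG15 and SNHG29. In 3 of the 10, ZFAS1, SNHG15 and SNHG29, every PS80 library lay above every control library on scaled log2 CPM, against 10.3% of all genes tested. The 3 comparisons share libraries, so their values for a host are not independent of each other. The 4 libraries PS80 replicates 1, 3, 4 and 5 were counted with another featureCounts version than the other 11, and this cannot be told apart from PS80 in them.

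**Figure D2:**
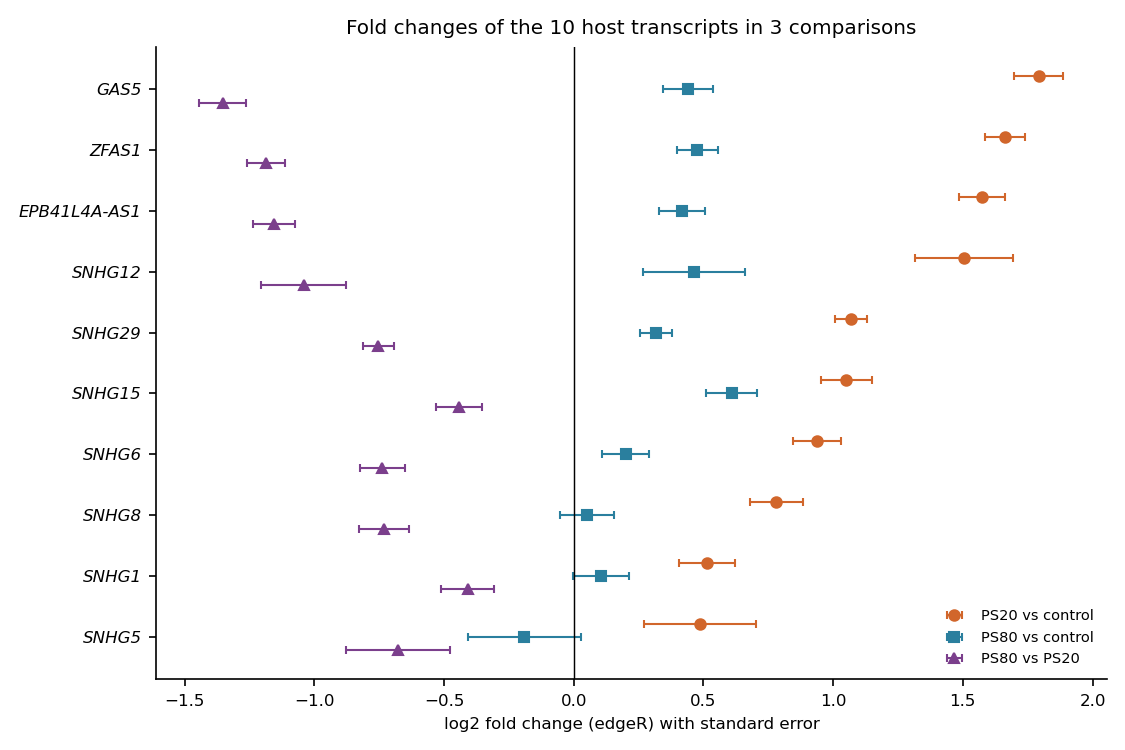
Log2 fold change (x axis, edgeR) with its standard error for each host transcript (y axis, ordered by the PS20 value) in 3 comparisons, PS20 against control, PS80 against control and PS80 against PS20. GAS5 at 1.79 and SNHG5 at 0.49 are the ends of the PS20 range, and all 10 values of PS80 against PS20 lie below 0.

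Levels between hosts can be compared only per length, here as CPM per kilobase of the merged gene model. SNHG29 was the highest in all 3 groups, at 47.6 ± 3.6 CPM per kb in PS80, 81.5 ± 5.1 in PS20 and 38.9 ± 2.6 in control (SD, n = 5 each), and no other host reached its range. GAS5 and SNHG6 came next: GAS5 averaged 18.3 CPM per kb in PS80, 47.8 in PS20 and 13.9 in control, and SNHG6 averaged 16.8, 28.3 and 14.8 CPM per kb in the same groups. This pair overlapped in PS80 and in control, with SNHG6 first in control, and was separate in PS20, where GAS5 was above SNHG6. From ZFAS1 and SNHG1 down to SNHG15 the order was close. In control, SNHG1 (7.495 CPM per kb), ZFAS1 (6.61), EPB41L4A-AS1 (5.10), SNHG8 (4.61) and SNHG15 (4.02) each overlapped the next. In PS20, ZFAS1 (20.8) and EPB41L4A-AS1 (15.2) stood above SNHG1 (10.95 CPM per kb) without overlap. SNHG12 and SNHG5 were the lowest in all groups, SNHG12 at 0.55 CPM per kb in PS80, 1.20 in PS20 and 0.43 in control, and SNHG5 at 0.19, 0.31 and 0.22 CPM per kb.

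**Figure D3:**
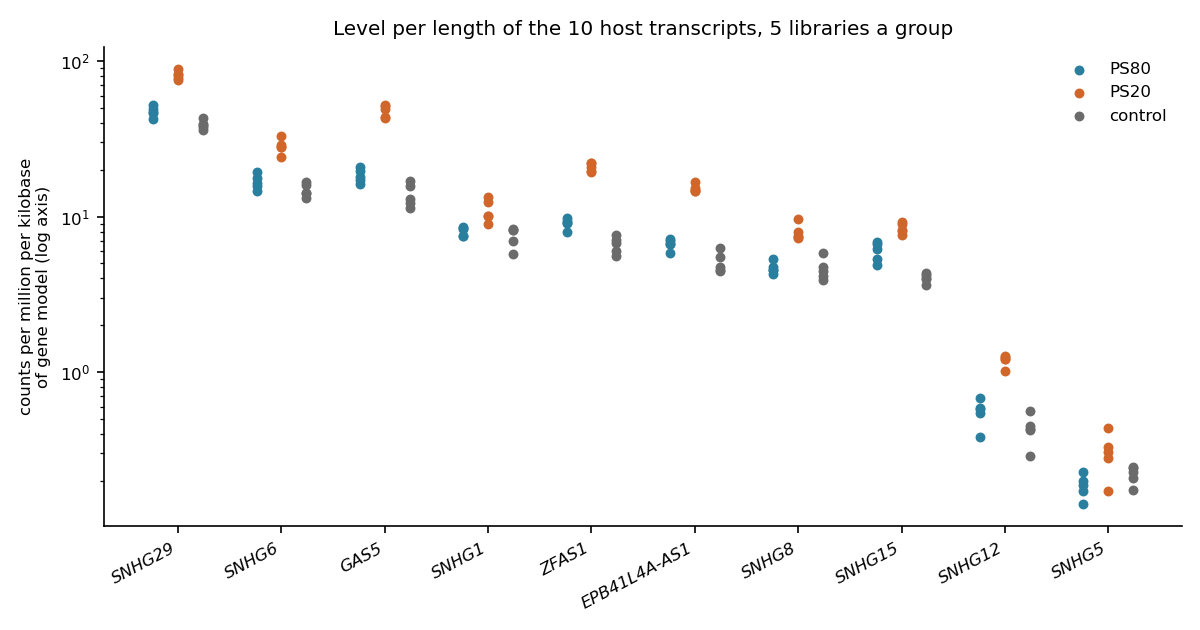
CPM per kilobase of gene model (y axis, log scale) of each host transcript (x axis, ordered by the control mean), with 1 point per library for PS80, PS20 and control. SNHG29 is highest in each group, and GAS5 moves clear of SNHG6 only in PS20.

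The gene models bear on these levels. Merged exons run from 2527 bases in SNHG6 to 12604 bases in SNHG5, and which transcripts of a host were present was not measured. The order per kilobase is therefore one of gene models and not of transcript amounts. The merged exons of EPB41L4A-AS1, SNHG1, SNHG8 and SNHG15 cover 100% of the gene's span, so reads from spliced RNA and from unspliced RNA are summed there, while they cover 21.57% of SNHG29 and 38.81% of ZFAS1. Exonic bases shared with another gene, where reads stay unassigned by default, made up 62.41% of SNHG6, 54.34% of EPB41L4A-AS1, 43.13% of ZFAS1 and 39.58% of SNHG8, and at most 15.39% of each of the other 6 hosts. Of the genes on the other strand of a host, ZBTB37 beside GAS5 fell by 0.62 in PS20 (adjusted p = 0.000138, edgeR) and by 0.52 in PS80 (adjusted p = 0.00112) on the log2 scale. TRNAU1AP beside SNHG12 and LRRC75A beside SNHG29 did not pass against control in either group.

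The snoRNAs themselves could not be followed. The annotation has 23 snoRNA rows inside 9 of the hosts, 16 box C/D and 7 box H/ACA, and none in GAS5, while RefSeq places 35 in the 10 spans. None of the 23 rows passed the filter on low counts, and 20 of them had 0 reads in all 15 libraries. The rest were SNORD12C with 25 reads over the PS80 libraries, 7 over PS20 and 1 over control, SNORD99 with 10, 2 and 3, and SNORD12B with 0, 3 and 1. Of the SNORD12C reads, 20 came from PS80 replicate 2, the deepest library. Of the 23 rows, 21 have a share of at least 0.5 of their length in an annotated exon of the host, where a read counts for neither gene, and mature snoRNAs carry no poly(A) tail. The host values thus say nothing of the amount of snoRNA.

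Within each group some libraries stood off for most hosts at once. In PS20 replicate 5 all 10 were below the PS20 mean on log2 CPM, by 0.17 on average, and in PS20 replicate 2 there were 9 above it, by 0.14. In control replicate 2, 9 were above the control mean, by 0.15, and in PS80 replicate 1, 9 were above the PS80 mean, by 0.10. The mean of replicates 1 and 2 exceeded that of replicates 3 to 5 in 8 hosts in PS80, 10 in PS20 and 9 in control, with median differences of 0.13, 0.11 and 0.17 on the log2 scale. The hosts of 1 library share its depth and preparation. For single hosts this difference lay between -0.34 and 0.33 in PS80, 0.016 and 0.42 in PS20 and -0.19 and 0.41 in control. With replicates 1 and 2 alone 3 hosts passed as higher in PS80 than in control, ZFAS1 and EPB41L4A-AS1 no longer among them, and with replicates 3 to 5 alone 6 did.

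Of 24 other non-coding snoRNA hosts, 14 could be tested: 4 passed as higher and 2 as lower in PS20 than in control, with a median log2 fold change of 0.12. Of all genes tested, 24.4% were higher and 23.9% lower. SNHG17, host of several SNORA71 snoRNAs, was higher by 0.51 ± 0.06 in PS20 (adjusted p = 2.41e-07, the edgeR test named above, as for all adjusted p-values that follow) and SNHG7 by 0.41 ± 0.09 (adjusted p = 0.000564). SNHG3 fell by 0.58 ± 0.16 in PS20 (adjusted p = 0.00492). Against control, PS80 gave 3 higher and 2 lower with a median of 0.06, beside 17.4% and 16.0% of all genes: SNHG17 was higher by 0.44 (adjusted p = 7.05e-06), and DANCR, a host that also acts on differentiation, fell by 0.39 (adjusted p = 0.00385). SNHG4 was higher by 0.31 in PS80 (adjusted p = 0.037), a call that 6 of 10 single left-out libraries ended (0.0144 to 0.125). Between PS80 and PS20, 2 of the 14 were higher and 2 lower in PS80, beside 18.2% and 17.3% of all genes. SNHG11 fell by 0.37 (adjusted p = 0.00571), SNHG3 was higher by 0.44 (adjusted p = 0.0297) and SNHG4 by 0.33 (adjusted p = 0.0211). Leaving out single libraries ended the SNHG3 call in 5 and the SNHG4 call in 4 of 10 cases. The count for PS80 against control was 2 in place of 5 without control replicate 3, control replicate 5 or PS80 replicate 2. For PS80 against PS20, in place of 4, it was 2 without PS20 replicate 4, PS80 replicate 1 or PS80 replicate 2, and 1 without PS80 replicate 5.

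Among protein-coding snoRNA hosts, the ribosomal protein genes were mostly higher under PS20. Of 28 ribosomal protein genes with a nested snoRNA, 25 passed as higher in PS20 than in control and 0 as lower, beside 24.4% and 23.9% of all genes. Their median log2 fold change was 0.37. RPL12 was higher by 0.70 (adjusted p = 8.57e-08), RPL10 by 0.49 (adjusted p = 7.6e-07) and RPS12 by 0.47 (adjusted p = 2.53e-07). In PS80 against control 13 passed as higher with a median of 0.16, beside 17.4% of all genes. There RPL12 was higher by 0.31 (adjusted p = 0.00204) and RPS2 by 0.27 (adjusted p = 0.00909). The count of 13 was 7 without control replicate 1, and 8 without control replicate 3 or PS80 replicate 1. In PS80 against PS20, 21 were lower with a median of -0.20, beside 17.3% of all genes: RPL12 by -0.39, RPL30 by -0.34 and RPS20 by -0.33 (adjusted p = 0.000207, 0.00017 and 1.66e-05). Many pseudogene copies resemble these genes closely, which makes their counts uncertain.

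TOP mRNAs outside the ribosome gave a like picture. Of 16 tested, 13 passed as higher in PS20 than in control and 0 as lower (median 0.30), beside 24.4% and 23.9% of all genes. Among them were the poly(A)-binding protein gene PABPC1 by 0.55 (adjusted p = 5.22e-07), the elongation factor EEF1A1 by 0.45 (adjusted p = 3.02e-05) and the initiation factor subunit EIF3H by 0.41 (adjusted p = 2.58e-06). In PS80, 6 were higher and 1 lower than in control (median 0.13), beside 17.4% and 16.0% of all genes, with EIF3E higher by 0.21 (adjusted p = 0.00475). EEF2 by 0.20 (adjusted p = 0.0436) and RACK1 by 0.19 (adjusted p = 0.0302) each missed the threshold without 6 of 10 single libraries (0.0113 to 0.137 for EEF2 and 0.00789 to 0.0924 for RACK1). That count of 7 was 2 without control replicate 3, 4 or 5, 3 without PS80 replicate 1 and 4 without control replicate 1. In PS80 against PS20, 9 were lower (median -0.15), beside 17.3% of all genes: PABPC1 by -0.37, EEF1A1 by -0.29 and TPT1 by -0.27 (adjusted p = 0.000158, 0.00385 and 0.00185).

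Other named genes with a nested snoRNA, 117 of 147 tested, gave 30 higher and 35 lower in PS20 than in control (median 0.00), beside 24.4% and 23.9% of all genes. EEF1B2, EEF2, RACK1 and TPT1 are also in the TOP mRNA list above, and NOP56, NOP58 and DKC1 in the snoRNP list below. The counts of these lists are therefore not separate. In PS80, 30 were higher and 12 lower than in control (median 0.05), beside 17.4% and 16.0% of all genes. CCNB1IP1, a ubiquitin ligase gene that hosts a box H/ACA snoRNA, was higher by 1.34 ± 0.11 in PS20 (adjusted p = 4.45e-09) and by 0.58 ± 0.11 in PS80 (adjusted p = 0.000402). DGLUCY fell by 0.88 (adjusted p = 5.46e-07) and CCAR1 by 0.80 (adjusted p = 3.83e-06) in PS20, and PRPF39 by 0.57 (adjusted p = 0.00118) and COBLL1 by 0.53 (adjusted p = 3.42e-05) in PS80. In PS80 against PS20, 31 were higher and 14 lower (median 0.06), beside 18.2% and 17.3% of all genes, with DGLUCY higher by 0.83 (adjusted p = 1.92e-06), CCNB1IP1 at -0.76 (adjusted p = 1.09e-05) and TAF1D, a polymerase I factor subunit and multi-snoRNA host, at -0.63 (adjusted p = 5.57e-07).

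Genes of the decay pathway were listed because spliced host RNAs are known decay substrates. Of 20 nonsense-mediated decay factors, 10 were lower and 2 higher in PS20 than in control (median -0.16), beside 23.9% and 24.4% of all genes. RBM8A, a core exon junction protein, fell by 0.75 (adjusted p = 2.04e-07), UPF2, which bridges the junction complex to UPF1, by 0.65 (adjusted p = 3.73e-07) and SMG9, a partner of the SMG1 kinase, by 0.56 (adjusted p = 9.09e-07). In PS80, 7 were lower and 1 higher than in control (median -0.06), beside 16.0% and 17.4% of all genes. There UPF2 fell by 0.63 (adjusted p = 1.78e-06), UPF3B by 0.56 (adjusted p = 0.000363) and RBM8A by 0.55 (adjusted p = 2.38e-05). UPF2 and RBM8A thus fell under both emulsifiers. Between PS80 and PS20, 3 were higher and 1 lower (median 0.02), beside 18.2% and 17.3% of all genes. UPF1 was higher in PS80 by 0.28 and GSPT1 by 0.27 (adjusted p = 0.000584 and 0.000138). MAGOHB, at -0.26 (adjusted p = 0.0424), missed the threshold without 7 of 10 single libraries (0.0209 to 0.123). The PS80 against PS20 count of 4 was 2 without PS20 replicate 2, 3 or 4 or PS80 replicate 4.

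Of 8 mRNAs reported as decay targets, 6 were higher in PS20 than in control and 0 lower (median 0.63), beside 24.4% and 23.9% of all genes. DDIT3 was higher by 1.69 (adjusted p = 7.88e-08), ATF3 by 1.33 (adjusted p = 3.39e-07) and UPP1 by 1.05 (adjusted p = 7.6e-07). DDIT3, ATF3 and ATF4, which is also on the list, are transcription factors of the integrated stress response as well. The list's values cannot separate the 2 roles. In PS80 4 were higher than control (median 0.33), beside 17.4% of all genes. There ATF3 was higher by 0.68 (adjusted p = 0.00153), GADD45A by 0.40 (adjusted p = 0.00596) and UPP1 by 0.36 (adjusted p = 0.0308). UPP1 missed the threshold for PS80 against control without 5 of 10 single libraries (0.012 to 0.0856). In PS80 against PS20, 6 were lower (median -0.34), beside 17.3% of all genes: DDIT3 by -1.34, UPP1 by -0.69 and ATF3 by -0.64 (adjusted p = 1.12e-06, 9.16e-05 and 0.000752).

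Of 17 snoRNP proteins and assembly factors, which package snoRNAs, 1 was higher and 1 lower in PS20 than in control (median 0.05): NOP56, a core box C/D protein, was higher by 0.48 (adjusted p = 1.51e-05) and FBL, the box C/D methyltransferase fibrillarin, fell by 0.25 (adjusted p = 0.00157), a call lost with replicates 1 and 2 alone (log2 fold change -0.097, adjusted p = 0.539, the highest over the alternatives, of which the lowest was 8.47e-06). The count of 2 was 5 with upper-quartile factors and 4 with the replicate block, beside 24.4% higher and 23.9% lower over all genes. In PS80, 8 were higher than control and 0 lower (median 0.16), with NOP56 by 0.43 (adjusted p = 0.000142), RRP9 by 0.37 (adjusted p = 0.00292) and SNU13 by 0.33 (adjusted p = 0.000105); the count was 5 with replicates 3 to 5 alone, and 17.4% and 16.0% of all genes were higher and lower. In PS80 against PS20, 5 were higher and 0 lower (median 0.13), beside 18.2% and 17.3% of all genes. Among the 5 were FBL by 0.46 (adjusted p = 4.12e-06), RUVBL1, an assembly ATPase, by 0.40 (adjusted p = 2.75e-05) and RRP9 by 0.30 (adjusted p = 0.0112). The count of 5 was 8 without PS80 replicate 2. The difference between the PS20 and PS80 counts was not tested.

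**Figure D4:**
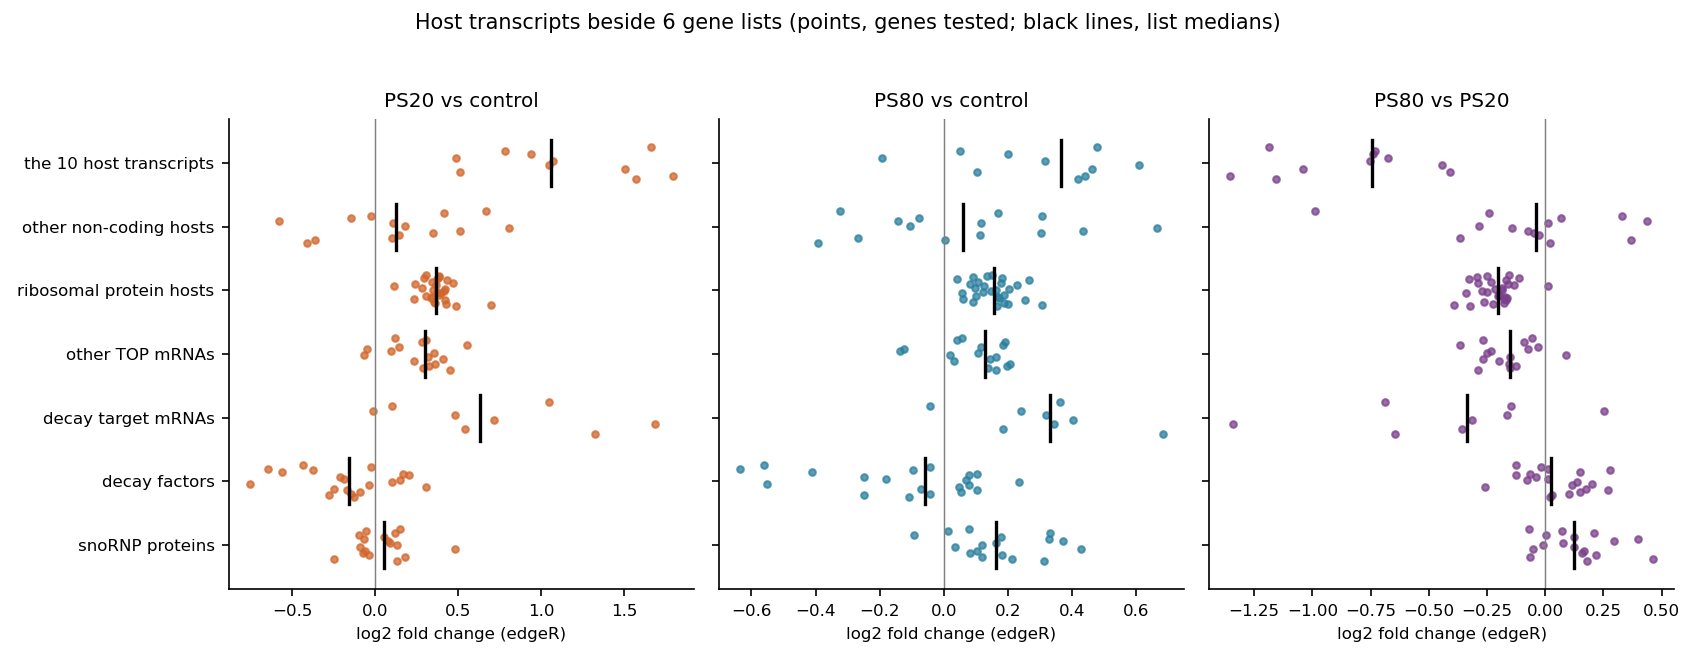
Log2 fold changes (x axis, edgeR; the scale differs between panels) of the 10 host transcripts and of 6 gene lists (y axis) in 3 comparisons; points are genes tested and black lines are list medians. The host median is 1.06 in PS20 against control and 0.37 in PS80 against control, and that of the snoRNP proteins is 0.05 and 0.16.

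The genes whose level was most like the mean log2 CPM of the 10 hosts over the 15 libraries were APOL6, CD55, PHYH, RPL10A and NFE2L1, each with Pearson's r of 0.98 among 10141 genes compared. None of the 5 is in the lists above. RPL10A is a ribosomal protein gene, left out because it has no nested snoRNA row. It had log2 fold changes of 0.57 for PS20 and 0.16 for PS80 against control. The ribosomal protein list above covers only genes with a nested snoRNA, and the rest formed no list. The libraries fall into groups, so this likeness is mostly that of the group means and is given with no p. APOL6 had log2 fold changes of 0.94 for PS20 and 0.19 for PS80 against control, CD55 of 0.88 and 0.32, and PHYH of 1.05 and 0.29.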

How the data were processed

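The authors deposited raw counts of reads by gene, 1 table a library. Per the file headers, counting used featureCounts (2.0.0 in 11 libraries, 2.0.3 in PS80 replicates 1, 3, 4 and 5) with GENCODE release 42, mapping quality of at least 10, and neither strand nor pair options. Cutadapt, STAR 2.7.9a and DESeq2 1.32.0 with GRCh38 come from the submitters' processing notes. Libraries were made from polyadenylated RNA with a TruSeq kit, per the labels' protocols. Of 69215 rows, 62672 (90.55%) were paired with a symbol. Total counts per library had a median of 8829612, and counting error is largest for SNHG5 and SNHG12.

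The tests ran in edgeR 4.0.16 under R 4.3.3: filterByExpr (minimum count 10, minimum total 15) left 12769 genes, factors were trimmed means of M-values, and groups were compared by the quasi-likelihood test in a model of 1 term per group over all 15 libraries, with Benjamini-Hochberg adjustment at 0.05. The SE is the log2 fold change divided by the square root of the test statistic. Log2 CPM used a prior count of 2. Scripts were tested on simulated data. The members and lists were chosen with earlier results of these data known. Named genes were the 10 hosts, up to 3 genes per other list and comparison with the largest absolute log2 fold change among those that passed with a mean of at least 5 CPM, and the 5 genes most like the hosts' mean; some items that the rule names are not reported here. Alternatives were other scaling factors, no filter, DESeq2 1.42.0, a replicate block, replicates 1 and 2 or 3 to 5 alone, and each library left out; those for the other named genes were added after seeing the data. Deviations of same-numbered libraries from their group means correlated by 0.10 to 0.30 over genes in every pair of PS80 and control. The ranges of the other comparisons overlapped this one, so whether the numbers pair libraries was not settled, and the labels do not say. The main tests did not use the numbers, and the replicate block did. Sequences came from RefSeq (GRCh38.p14) and GENCODE release 29, read in Python 3.11.15.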

Additional observations from a re-analysis of the deposited data

Results flagged for a closer look

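The levels of the 10 hosts were checked for a library apart from its group in 30 sets of 5 libraries, and 1 stood out. SNHG12 had 4.32 CPM in PS20 replicate 5, below the other PS20 libraries at 5.21 to 5.44 CPM, with a gap of 0.795 of the range (critical value 0.71). It was still above every control library, of which the highest had 2.39 CPM. Chance alone gives about 1 in 20 such sets. PS20 replicate 5 also had all 10 hosts below the PS20 mean, SNHG5 among them.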

How the results depend on the processing

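Among the 10 hosts, no alternative reversed a value that had passed, and 9 or 10 passed in PS20 and 8 to 10 in PS80 against PS20 under every setting; for PS80 against control the count of 5 was 3 with replicates 1 and 2 alone. Of 170 refitted values per comparison, 168, 161 and 166 kept their direction and side of the threshold for PS20 against control, PS80 against control and PS80 against PS20. The reversed ones, none past the threshold, were for PS80 against control SNHG1 (-0.028 with replicates 3 to 5 alone) and SNHG8 (-0.087 with replicates 1 and 2 alone, and -0.019 to 0.16 over single left-out libraries, lowest without control replicate 4). The median for PS80 against PS20 was -0.88 with replicates 1 and 2 alone. With replicates 1 and 2 alone, the counts of calls for PS20 against control, PS80 against control and PS80 against PS20 were 2, 2 and 0 for other non-coding hosts, 8, 2 and 2 for TOP mRNAs and 34, 22 and 14 for other named hosts; 6 and 3 ribosomal hosts passed in the PS80 comparisons, 5 decay factors in PS20 against control and 1 in PS80 against PS20, 1 snoRNP gene in PS80 against PS20 and 2 decay targets in PS80 against control. With replicates 3 to 5 alone, PS80 against control gave 3 other hosts, 11 TOP mRNAs, 5 snoRNP genes and 2 decay targets. Named genes other than the 10 hosts that lost their call with replicates 1 and 2 alone were SNHG3, SNHG7 and FBL in PS20 against control, EIF3E, UPP1, RPS2 and SNHG4 in PS80 against control, and TPT1, GSPT1, UPF1, RPL30, RRP9, RUVBL1, SNHG3, SNHG4 and SNHG11 in PS80 against PS20. Calls over all genes also fell with replicates 1 and 2 alone, here over 12903 genes. They were 1545 higher and 1571 lower in PS20 against control, beside 3115 and 3048 with all libraries. In PS80 against control they were 1103 and 922, beside 2224 and 2042. In PS80 against PS20 they were 786 and 611, beside 2324 and 2203. With replicates 3 to 5 alone, PS80 against control gave 2006 higher and 1956 lower over 12807 genes. Both settings hold fewer libraries, and other causes were not tested. Upper-quartile factors gave 5 snoRNP genes in PS20 against control, and over all genes 1872 higher and 2704 lower in PS80 against PS20, beside 2324 and 2203. Without the filter, 13 ribosomal hosts passed in PS80 against PS20, and 1 nested snoRNA row in PS80 against control.

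Leaving out single libraries gave counts, for PS80 against control, of 2 to 4 for other hosts, 2 to 10 for TOP mRNAs and 7 to 17 for ribosomal hosts, and for PS80 against PS20 of 1 to 5 for other hosts, 4 to 8 for snoRNP genes and 2 to 6 for decay factors. With the replicate block the host counts stayed 9, 5 and 10; snoRNP genes passing were 4 in PS20 against control and 8 in PS80 against PS20, decay factors 7 in PS80 against PS20, and no other count moved by more than 1.5 times. Same-numbered correlations were -0.03 to 0.25 in PS20 against control and 0.07 to 0.29 in PS80 against PS20, overlapping those of PS80 and control. Whether the numbers pair libraries was not settled in any comparison.

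Depth limits SNHG5 and SNHG12, with as few as 13 and 8 reads in a control library, and all nested snoRNA rows. Unstranded counting and shared exons limit SNHG6, EPB41L4A-AS1, ZFAS1 and SNHG8.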
